A study of Xenopus laevis with 6 samples.

Results

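The nuclear genes of the mitochondrial respiratory chain were described in the testis of Xenopus laevis, the African clawed frog, by the 5 complexes they build and in the factors that assemble them. A row of the mRNA table was a member when its symbol belonged to one of the families nduf, sdh, sdhaf, uqcr, cyc1, cox or atp5, or when its description named NADH dehydrogenase, a cytochrome b-c1 complex, a cytochrome c oxidase subunit or ATP synthase. The rule left out the mitochondrial chromosome and used no measured value. It found 112 of 31598 rows, 83 by symbol and 29 by description alone. They comprised 32 rows of complex I, 4 of complex II, 14 of complex III, 30 of complex IV, 19 of complex V and 13 of assembly factors. A further 9072 rows of the table carry no description, so the list is not complete. No row for sdhc, ndufv2 or uqcrh was among the members.

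Testes of 3 libraries came from frogs kept in 100 µg/L atrazine, a triazine herbicide, for 180 days, and those of 3 control libraries from frogs of the same stage, postnatal day 193. The labels name no strain and no pooling, and do not say whether each library was a separate animal, and a p-value covers no more than the variation among the 6 libraries. Libraries were made from total RNA of whole testis depleted of ribosomal RNA, so fewer cells of a type and less RNA per cell cannot be told apart. Levels are FPKM, reads scaled for transcript length and for library size.

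Complex I takes electrons from NADH and complex II takes them from succinate, and both pass them to coenzyme Q. Complex III hands them to cytochrome c, and complex IV gives them to oxygen. Complexes I, III and IV pump protons across the inner mitochondrial membrane, and complex V, the ATP synthase, uses the returning protons to make ATP. All complexes except II combine subunits encoded in the mitochondrial genome with subunits encoded in the nucleus, and separate proteins insert copper, heme and iron-sulfur clusters and join the parts. Xenopus laevis is an allotetraploid, and many genes have a copy on a chromosome of the L set and another on the S set, called homeologs. In the testis, germ cells and the somatic Sertoli and Leydig cells all hold mitochondria, and the mitochondria of sperm gather in the midpiece.

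The libraries rested on an estimated 7360633 to 17018688 reads, with the fewest in atrazine replicate 3. Markers of the labelled tissue were present, with rows found for 5 of 16 listed meiosis genes, 8 of 15 spermatogonial genes and 11 of 13 Sertoli cell genes. The 5 meiosis rows measured summed to 381 to 438 FPKM in the atrazine libraries and 385 to 459 FPKM in the controls. The 9 spermatogonial rows summed to 1009 to 1135 FPKM and 891 to 1140 FPKM. Of the 18 Sertoli cell rows, the germ line growth factor rows gdnf.L and gdnf.S lay under 0.5 FPKM on average, and the list summed to 427 to 478 FPKM with atrazine and 436 to 512 FPKM without.

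Respiratory chain mRNAs were among the abundant mRNAs of the testis. Of the 112 members 109 had at least 0.5 FPKM in at least 3 libraries and were tested, and their median level was 83.1 FPKM against 8.85 FPKM for all 23824 rows tested. Of the members tested, 82 (75.2%) stood in the top 10% of rows by mean level. The 3 rows not tested were cox6a2.L, LOC108720086 and LOC108719748. Together the members made up 1.90% to 2.14% of the summed FPKM of a library. The 104 members placed on chromosomes made up 1.59% to 1.74%. With the 164 members taken by the symbols of assembly v10.1 the share was 2.51% to 2.74%.

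Levels differed between the complexes. The median row stood at 135 FPKM in complex V, 101 in complex IV, 83.7 in complex I, 61.4 in complex III, 39.7 in complex II and 12.5 among the assembly factors. Of the 31 complex I rows placed on chromosomes and tested, 30 had a mean of at least 20 FPKM, and they ran from 15.4 FPKM for LOC108706854 (ndufa7.S in assembly v10.1) to 242 FPKM for ndufs5.L. In complex IV the placed rows ran from 0.920 to 299 FPKM, the highest being cox7b.L. In complex V they ran from 13.5 FPKM for LOC108697599, described as ATP synthase subunit g-like, to 313 FPKM for atp5j.L. Rows of 1 complex were thus not at equal levels.

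**Figure D1:**
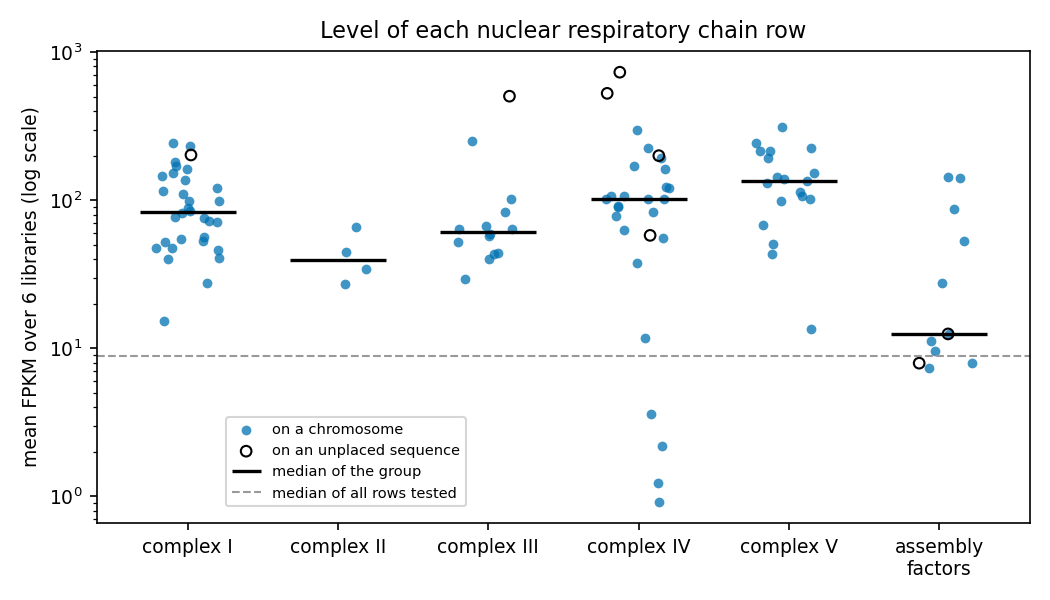
Mean FPKM over the 6 libraries (log axis) of each of the 109 tested rows, by complex. Filled points lie on chromosomes and open circles on unplaced sequences, black bars are group medians and the dashed line is the median of all rows tested, 8.85 FPKM. The median of every group lies above that line, and the assembly factors, at 12.5 FPKM, lie closest to it.

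The highest values of all came from very short rows. The row cox6b1.S_2 spans 113 bases of an unplaced sequence and had a mean of 732 FPKM from 11 to 19 estimated reads per library. The row ndufa4.L_2 spans 111 bases and had a mean of 527 FPKM from 4 to 20 reads. The row uqcrq.S_2 spans 174 bases but rested on 85 to 244 reads, with a mean of 504 FPKM. Division by a short length turns few reads into a high FPKM, so levels of such rows are less certain than those of rows on chromosomes.

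The first comparison was between exposed and control testes. No member passed the test. With limma on log2(FPKM + 1) and Benjamini-Hochberg adjustment over all tested rows, 0 of 109 members and 0 of 23824 rows (0%) had an adjusted p under 0.05, and the smallest adjusted p of a member was 0.693. At an unadjusted p under 0.05 there were 14 members (12.8%) beside 5.92% of all rows. With atrazine replicate 1 left out the count was 8 (7.34%, against 6.93% of all rows), and with atrazine replicate 2 left out it was 4 (3.67%, against 2.80%). It was 26 (23.9%, against 19.1%) without control replicate 1, 6 (5.50%, against 3.33%) without control replicate 2 and 9 (8.26%, against 3.32%) without control replicate 3. Without atrazine replicate 1 or 2 or control replicate 1 the share was near that of the table. All members named below are therefore described by their values, and none is called changed.

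The members leaned toward lower values in atrazine by small amounts. Of 109 members 71 (65.1%) had a lower mean in atrazine, against 42.7% of all rows tested. The median difference, atrazine minus control on the log2(FPKM + 1) scale, was -0.072 for the members and 0.040 for all rows. Among the 6191 rows with a mean of at least 20 FPKM 54.7% were lower, with a median of -0.025, and among the 95 members that abundant 72.6% were lower, with a median of -0.093. The median of the members was -0.035 without atrazine replicate 3, when 63 of 109 were lower, and -0.12 with median-of-ratios scaling of the libraries, when 78 (71.6%) were lower. That scaling moved the whole table too, with 49.3% of all rows lower and a median of 0.0036. A list-level lean of this kind was already known when the members were chosen, so it is given as a description with no test.

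In 19 members (17.4%) all 3 atrazine libraries lay below all 3 controls, against 4.66% of all rows. In 5 members (4.59%) all 3 lay above, against 6.63% of all rows. With members taken by assembly v10.1 symbols (161 tested) the lower count was 22 (13.7%) and the higher count 7 (4.35%). The lower share thus depended in part on which rows the naming took in. Without atrazine replicate 1 the lower count was 29 (26.6%, against 9.26% of all rows), and without control replicate 1 it was 33 (30.3%, against 15.8%). The higher count was 10 (9.17%, against 15.9% of all rows) without atrazine replicate 1 and 11 (10.09%, against 8.95%) without atrazine replicate 2. It was 8 (7.34%, against 13.7%) without atrazine replicate 3 and 17 (15.6%, against 22.6%) without control replicate 1. With 1 library left out the higher counts thus rose along with the share of the whole table, and exceeded it only without atrazine replicate 2.

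**Figure D2:**
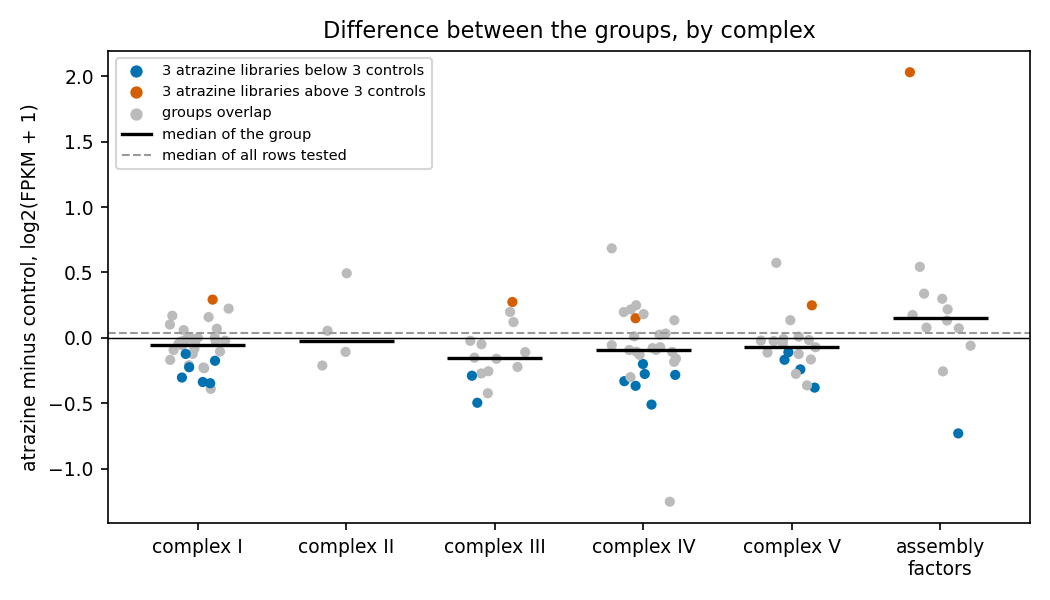
Difference in log2(FPKM + 1), atrazine minus control, for each of the 109 tested rows, by complex. Blue points are the 19 rows whose 3 atrazine libraries lie below the 3 controls, orange points the 5 rows with the reverse, and grey points rows whose groups overlap. Black bars are group medians, and the dashed line is the median of all rows tested, 0.040. The medians of complexes I to V lie below 0 and that of the assembly factors lies at 0.15.

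The lean differed in size from complex to complex and the libraries did not all share it. Lower rows numbered 22 of 32 in complex I (median -0.052), 2 of 4 in complex II (-0.027), 11 of 14 in complex III (-0.16), 18 of 28 in complex IV (-0.093) and 15 of 19 in complex V (-0.072). Among the assembly factors 3 of 12 were lower, with a median of 0.15. Differences between the complexes were not tested. The naming mattered most in complex V, where 16 of 28 members taken by assembly v10.1 symbols were lower (median -0.019). By those symbols 42 of 57 were lower in complex I, 4 of 6 in complex II and 12 of 17 in complex III. In complex IV 21 of 31 were lower, and among the assembly factors 7 of 22. The complex I median was -0.098 without atrazine replicate 1, -0.094 without atrazine replicate 3 and -0.088 without control replicate 3. The complex II median took either sign, from -0.15 without control replicate 1 to 0.077 without control replicate 2. That of complex IV was -0.018 and that of complex V -0.031 without atrazine replicate 3. The assembly median was 0.27 without control replicate 1 and 0.040 without control replicate 2.

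Each library was also set against the row means. The median deviation of the members was -0.016, -0.018 and -0.054 in atrazine replicates 1, 2 and 3, and 0.022, 0.070 and 0.023 in control replicates 1, 2 and 3. The groups did not overlap in this median, though the gap between the nearest libraries was small. In complex III control replicate 2 stood furthest out, at 0.21. In complexes II, IV and V and among the assembly factors the libraries of the groups overlapped. With the mean deviation of all members in place of the median, the groups did overlap. That mean was -0.002, 0.015 and -0.081 in atrazine replicates 1, 2 and 3, and -0.029, 0.051 and 0.047 in control replicates 1, 2 and 3. For the members placed on chromosomes the mean was -0.014, -0.019 and -0.069 in atrazine replicates 1, 2 and 3. It was -0.003, 0.070 and 0.036 in control replicates 1, 2 and 3, without overlap but again with a small gap. The separation thus depended on the summary used and on the rows taken in.

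**Figure D3:**
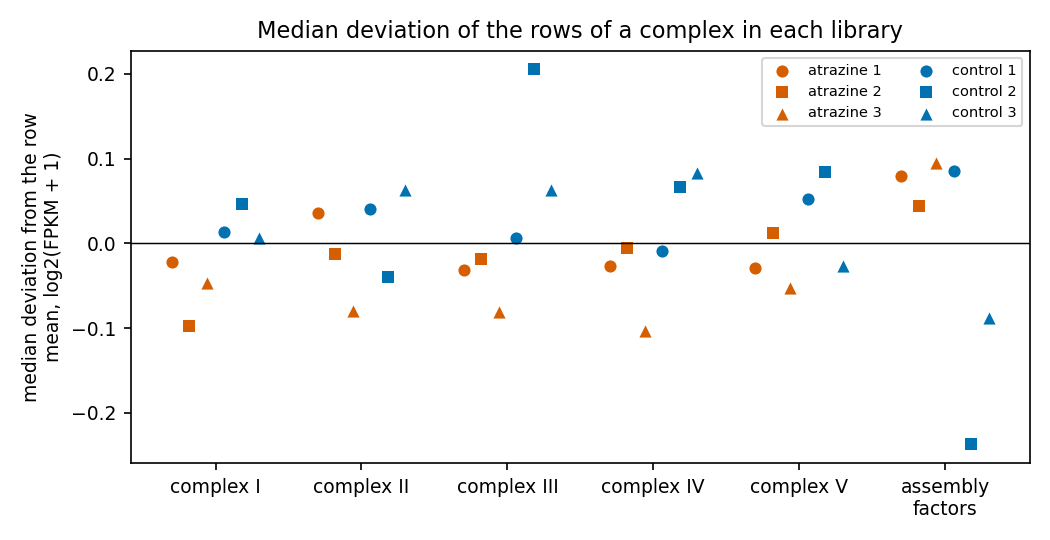
Median deviation of the rows of each complex from their own 6-library mean, in log2(FPKM + 1), for each library. Orange symbols are atrazine libraries and blue symbols controls, and a shared symbol shape marks a shared number in the titles, not a pair. In complex III control replicate 2 lies at 0.21 and among the assembly factors it lies at -0.24, the widest deviations plotted.

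Marker lists of other cells were summed in the same libraries, and none of their rows was called. The lists were not complete in the table. Genes were found for 15 of 26 in the spermatid and sperm flagellum list and 5 of 10 in the Leydig cell list. They were found for 13 of 17 in the red blood cell list, 13 of 22 in the muscle list and 11 of 12 in the fat body and liver list. Of 17 rows of the spermatid and sperm flagellum list 16 were lower in atrazine, with a median of -0.46, and the list summed to 614 to 955 FPKM with atrazine and 812 to 1396 FPKM without, with overlap. All 5 Leydig cell rows found (cyp17a1.L, fdx1.L, hsd3b1.L, nr5a1.L and star) were lower, with a median of -0.38, and summed to 150 to 264 FPKM and 283 to 303 FPKM, without overlap. Their log2 differences ran from -1.03 for star to -0.02 for fdx1.L. Of 9 spermatogonial rows 8 were higher, with a median of 0.30. The red blood cell list had 4 higher and 7 lower rows and summed to 177 to 249 FPKM with atrazine and 284 to 750 FPKM without, again with no overlap. Most of that sum came from 1 row, hbg1.L, the only tested row of the list without overlap. It stood at 120, 186 and 128 FPKM in atrazine and 244, 614 and 220 FPKM in control. Muscle rows summed to 58.0 to 91.8 FPKM and 60.1 to 146 FPKM, and fat body and liver rows to 27.0 to 30.7 FPKM and 18.0 to 33.2 FPKM, both with overlap. No row of these lists was at 0 in all libraries. The part of any of these cells in the lean of the respiratory chain was not tested.

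Complex I is the largest of the complexes, with core subunits that carry the electrons and accessory subunits around them. Among the core rows ndufv1.L, which encodes the subunit that binds NADH, stood at 152, 127 and 133 FPKM in atrazine replicates 1, 2 and 3 and at 146, 165 and 152 FPKM in control replicates 1, 2 and 3. The groups overlapped, with a log2 difference of -0.17 ± 0.12 (SE). The row ndufs1.L, for the largest iron-sulfur subunit of the NADH arm, stood at 45.3, 47.4 and 38.9 FPKM in atrazine and 41.8, 35.3 and 35.1 FPKM in control. Its log2 difference was 0.22 ± 0.13 (SE), again with overlap.

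The genes ndufs3, ndufs7 and ndufs8 encode core subunits of the arm that leads electrons to coenzyme Q. The row ndufs7.S (chromosome 1S, 84773404 to 84786370) stood at 88.5, 82.5 and 90.2 FPKM in atrazine and 93.2, 125 and 117 FPKM in control. Every atrazine library lay below every control, with means of 87.1 ± 4.05 and 112 ± 16.6 FPKM (SD, n = 3) and a limma log2 difference of -0.35 ± 0.13 (SE, unadjusted p = 0.0295, adjusted p = 0.693). The rows ndufs8.L and ndufs3.S overlapped and lay near 0. The row ndufs8.L had means of 98.9 ± 4.41 and 98.8 ± 0.346 FPKM (SD, n = 3). The log2 difference of ndufs3.S was 0.07 ± 0.11 (SE). The core rows described were thus not uniform in direction.

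An accessory row had the smallest p of complex I. LOC108700297 (chromosome 8S, 84937779 to 84944122), described as beta subcomplex subunit 11, stood at 114, 107 and 105 FPKM in atrazine and 129, 133 and 142 FPKM in control. The groups were well apart for their spread, at 109 ± 4.41 and 134 ± 6.49 FPKM (SD, n = 3), with a log2 difference of -0.30 ± 0.10 (SE, limma unadjusted p = 0.0168, adjusted p = 0.693). In the other direction ndufab1.L, the mitochondrial acyl carrier protein that is also a complex I subunit, stood at 27.0, 32.8 and 31.7 FPKM in atrazine and 23.9, 23.9 and 26.2 FPKM in control. The log2 difference was 0.29 ± 0.12 (SE, limma unadjusted p = 0.0400). It was the only member of complex I with every atrazine library above the controls. Its S homeolog, LOC108703197, was a member only by assembly v10.1 symbols and was also higher without overlap. That row stood at 26.9, 27.8 and 28.2 FPKM in atrazine and 18.7, 21.1 and 21.7 FPKM in control.

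Further accessory rows with every atrazine library lower were ndufc2.S, ndufb3.S, ndufb8.S and LOC108718389 (ndufs4.L in assembly v10.1), with log2 differences of -0.34, -0.23, -0.12 and -0.18. They fall outside the rule for named rows and were chosen after their values were seen. The most abundant rows on chromosomes, ndufs5.L and ndufa8.L, averaged 222 ± 13.5 and 211 ± 4.19 FPKM after atrazine, against 262 ± 29.1 and 251 ± 58.8 FPKM in control (SD, n = 3). Both overlapped between groups, and a single control library, replicate 2 at 318 FPKM, set the high control mean of ndufa8.L.

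Complex II, succinate dehydrogenase, is shared with the tricarboxylic acid cycle. Its flavin subunit sdha.S stood at 47.1, 40.3 and 42.3 FPKM in atrazine and 44.3, 47.1 and 48.4 FPKM in control. Its iron-sulfur subunit sdhb.S had means of 66.6 ± 14.7 and 65.0 ± 18.7 FPKM (SD, n = 3), the widest SD of the rows of complex II. Neither separated the groups.

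The membrane anchor sdhd was measured in both homeologs, which pointed in opposite directions. The S copy (chromosome 7S, 54871983 to 54880649) stood at 41.4, 48.0 and 31.5 FPKM in atrazine and 35.7, 21.1 and 28.9 FPKM in control. The L copy (chromosome 7L, 78059261 to 78066793) stood at 27.0, 28.8 and 20.1 FPKM in atrazine and 31.7, 24.2 and 32.2 FPKM in control. Both overlapped, with log2 differences of 0.49 ± 0.21 (SE, limma unadjusted p = 0.0484) and -0.21 ± 0.17 (SE). The S copy was above the L copy in all atrazine libraries and in control replicate 1, and the L copy was above in control replicates 2 and 3. The ratio of L to S differed between groups by -0.71 ± 0.14 on the log2 scale (SE, limma unadjusted p = 0.00109), and with adjustment over all 630 homeolog pairs of the table the p was 0.343. The sum of the copies was 51.6 to 76.8 FPKM with atrazine and 45.3 to 67.4 FPKM without.

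Complex III carries electrons through cytochrome b, an iron-sulfur protein and cytochrome c1. Cytochrome c1 from cyc1.L (chromosome 6L, 153008244 to 153013380) stood at 39.4, 37.0 and 41.4 FPKM in atrazine and 45.7, 53.2 and 45.9 FPKM in control. The groups did not overlap, and the log2 difference was -0.29 ± 0.11 (SE, limma unadjusted p = 0.0332, adjusted p = 0.693). Its homeolog cyc1.S overlapped, at 61.2 ± 6.15 and 65.9 ± 3.50 FPKM (SD, n = 3). The Rieske iron-sulfur protein row uqcrfs1.S overlapped as well, at 78.2 ± 5.43 and 87.8 ± 16.3 FPKM.

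Small subunits of complex III gave values on both sides. The short row uqcrq.S_2 stood at 409, 378 and 461 FPKM in atrazine and 492, 704 and 581 FPKM in control, without overlap (log2 difference -0.50 ± 0.15 SE, limma unadjusted p = 0.0116). The row uqcrq.S on chromosome 3L stood at 21.7, 32 and 21.3 FPKM against 28.9, 40.2 and 31.7 FPKM, and there the groups overlapped. LOC108712319, described as b-c1 subunit 10-like, stood at 68.8, 82.9 and 70.4 FPKM in atrazine and 66.6, 58.1 and 58.2 FPKM in control. It was the only complex III row with every atrazine library above the controls, with a log2 difference of 0.27 ± 0.12 (SE). The most abundant row on a chromosome, uqcrb.S, had means of 247 ± 10.5 and 257 ± 36.9 FPKM (SD, n = 3).

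Complex IV, cytochrome c oxidase, has nuclear subunits around a mitochondrially encoded core, and several of them exist as isoforms. The subunit VIb rows cox6b1.S and cox6b1.L differed in direction. The S copy (chromosome 7S, 89326788 to 89328520) stood at 82.7, 105 and 94.2 FPKM in atrazine and 116, 118 and 130 FPKM in control, a log2 difference of -0.37 ± 0.12 (SE, limma unadjusted p = 0.0162, adjusted p = 0.693). The L copy (chromosome 7L, 125898812 to 125907365) stood at 216, 203 and 194 FPKM in atrazine and 191, 179 and 183 FPKM in control, a log2 difference of 0.15 ± 0.10 (SE). Neither copy overlapped between groups. The ratio of this pair was not tested, because the short row cox6b1.S_2 carries the same symbol and the test took symbols with exactly 1 row of each copy.

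Other rows of complex IV were lower by similar amounts. The subunit VIIc row cox7c.S stood at 162, 147 and 145 FPKM in atrazine and 177, 217 and 180 FPKM in control, without overlap (log2 difference -0.33 ± 0.12 SE, limma unadjusted p = 0.0245). Subunit Va, cox5a.S, stood at 59.1, 57.3 and 52.8 FPKM and at 64.7, 80.9 and 62.1 FPKM, also without overlap (-0.28 ± 0.13 SE). Its homeolog LOC108711316 (cox5a.L in assembly v10.1) overlapped, at -0.09 ± 0.13 (SE). Of the 28 rows tested, 6 (21.4%) had every atrazine library lower, against 4.66% of all rows. In 1 (3.57%), cox6b1.L, every atrazine library was higher, against 6.63% of all rows.

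Isoform families showed which forms the testis carried. In mammals COX4I1, COX6A1 and COX7A2 are the widespread isoforms, COX6A2 and COX7A1 are heart and muscle forms, and COX4I2 is known best from lung. The row cox4i1.S averaged 97.7 ± 11.5 FPKM after atrazine and 105 ± 4.89 FPKM without (SD, n = 3). The row cox4i2.L stood at 39.2, 36.5 and 44.3 FPKM in atrazine and 37.0, 37.9 and 29.6 FPKM in control, so cox4i2 mRNA was present in every library. LOC108719104 and LOC108720086, described as subunit 4 isoform 1-like, had means of 2.19 and 0.474 FPKM.

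For subunit VIa, cox6a1.L had a mean of 227 FPKM and cox6a1.S of 83.1 FPKM. The muscle form cox6a2.L was at 0 in 5 libraries and at 0.177 FPKM, 1 estimated read, in atrazine replicate 2. For subunit VIIa, cox7a2.L stood at 191, 189 and 177 FPKM in atrazine and 200, 213 and 229 FPKM in control, while cox7a2.S overlapped at 113 ± 5.91 and 129 ± 15.6 FPKM (SD, n = 3). The 2 rows described as 7A1-like, LOC108698667 and LOC108700492, had means of 3.58 and 0.920 FPKM. They were named after their values were seen.

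The family of cox7a2l, whose product helps to join complexes III and IV, had 3 rows. The row cox7a2l.L overlapped between groups, at 75.4 ± 10.4 and 80.6 ± 12.6 FPKM (SD, n = 3). LOC108716430, described as a 7A-related protein, stood at 97.8, 88.5 and 102 FPKM in atrazine and 105, 129 and 117 FPKM in control, without overlap. LOC108699281, with the same description, had a mean of 1.24 FPKM.

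The ndufa4 product, once counted with complex I, is a subunit of complex IV. The row ndufa4.S, which lies on chromosome 7L, stood at 121, 126 and 101 FPKM in atrazine and 135, 122 and 130 FPKM in control. The row ndufa4.L on chromosome 7S stood at 15.1, 11.2 and 0 FPKM and at 9.55, 7.98 and 27.1 FPKM. Its log2 difference of -1.25 ± 0.95 (SE) was the most negative of any member, and it was 0.016 without atrazine replicate 3, the library listed at 0. The copies of this gene are spread over 4 rows, 2 of them short, and reads shared between them cannot be assigned with certainty.

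Complex V has a catalytic head, F1, and a membrane rotor and stalk, Fo. The alpha subunit rows atp5a1.L and atp5a1 averaged 222 ± 2.11 and 213 ± 4.86 FPKM after atrazine, against 225 ± 16.6 and 220 ± 14.7 FPKM in control (SD, n = 3). The beta subunit row atp5b.S had means of 213 ± 22.2 and 216 ± 25.4 FPKM. The gamma subunit row atp5c1.L stood at 97.8, 97.0 and 97.7 FPKM in atrazine and 102, 105 and 110 FPKM in control, without overlap but with a log2 difference of only -0.11 ± 0.10 (SE).

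The small epsilon subunit of F1 was lower in both of its rows. LOC108700938 (chromosome 9_10L, 16381675 to 16386383), described as epsilon-like, stood at 148, 110 and 141 FPKM in atrazine and 156, 209 and 156 FPKM in control, a log2 difference of -0.38 ± 0.16 (SE, limma unadjusted p = 0.0465, adjusted p = 0.693). LOC398702 (chromosome 9_10S, 15081330 to 15084462), described as the F1 epsilon subunit, stood at 126, 117 and 127 FPKM and at 137, 164 and 137 FPKM, a log2 difference of -0.24 ± 0.12 (SE). Neither row overlapped between groups.

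Rows of Fo lay on both sides of 0. The coupling factor 6 row atp5j.L, the most abundant member on a chromosome, stood at 305, 274 and 305 FPKM in atrazine and 351, 337 and 306 FPKM in control. Every atrazine library lay below every control, though the nearest libraries were almost equal. The rotor subunit c is made from several genes, and atp5g1.L, atp5g3.L and LOC108701385 (atp5mc3.L in assembly v10.1) had log2 differences of -0.11, -0.03 and 0.01, all with overlap. The subunit f row atp5j2.S overlapped too, at 230 ± 29.3 and 257 ± 10.8 FPKM (SD, n = 3). LOC108719867, described as subunit e-like, stood at 50.3, 48.4 and 42.2 FPKM in atrazine and 39.0, 37.4 and 41.6 FPKM in control, the only complex V row with every atrazine library above the controls. The row atp5s.L is placed in complex V by its deposited symbol but is named dmac2l in assembly v10.1.

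The assembly factors held the member with the smallest p and the member with the largest positive difference. COX17 is the chaperone that brings copper to complex IV, and cox17.S had that smallest p. It lies on chromosome 2S from 28590999 to 28597107 and stood at 120, 91.2 and 106 FPKM in atrazine and 153, 212 and 166 FPKM in control. The groups were far apart, at 106 ± 14.2 and 177 ± 31.2 FPKM (SD, n = 3), with a log2 difference of -0.73 ± 0.16 (SE, limma unadjusted p = 0.00141, adjusted p = 0.693). Its homeolog cox17.L stood at 134, 117 and 133 FPKM in atrazine and 149, 219 and 109 FPKM in control. Control replicate 2 was the highest library for both copies, and the log2 difference of cox17.L was 0.0015 without it against -0.26 ± 0.22 (SE) with it. The L to S ratio differed between groups by 0.47 ± 0.19 (SE, limma unadjusted p = 0.0371), and the adjusted p over all pairs was 0.637.

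The largest positive difference was that of ndufaf4.L, a complex I assembly factor, and it rested on few reads. The row spans 183 bases of an unplaced sequence and stood at 8.98, 19.6 and 8.77 FPKM in atrazine and 0, 2.29 and 7.94 FPKM in control, from at most 9 estimated reads in a library. The log2 difference was 2.03 ± 0.69 (SE, limma unadjusted p = 0.0170). LOC108705644 and LOC108716895, described as assembly factor 4-like, had log2 differences of 0.13 and 0.07 with overlap. Among the rest, cox10.L (heme A synthesis), cox18.L (membrane insertion), ndufaf2.L, ndufaf7.L and atpaf2.S had higher means in atrazine, with log2 differences of 0.17, 0.30, 0.22, 0.54 and 0.34. All overlapped between the groups.

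**Figure D4:**
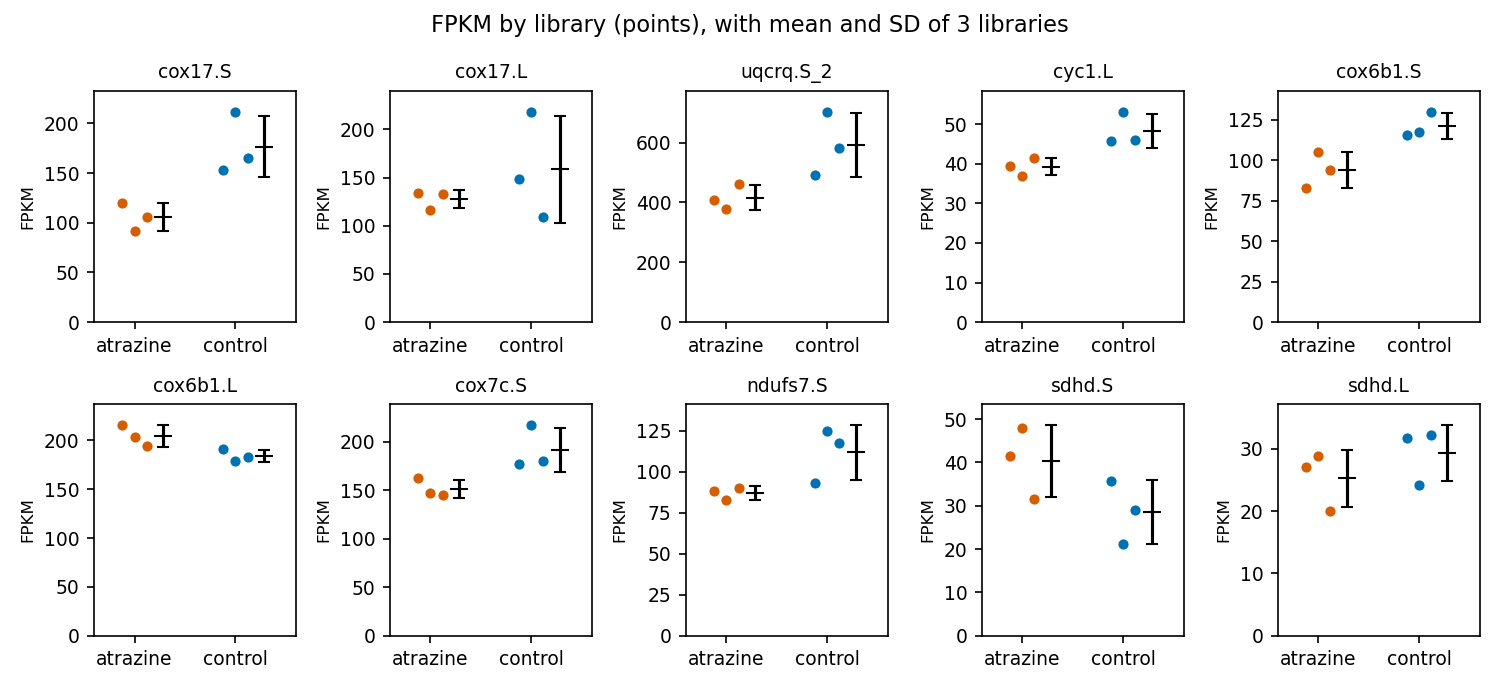
FPKM by library for 10 rows, with points for single libraries and a bar for the mean and SD of 3 libraries in each group; every axis starts at 0. The groups separate in cox17.S, uqcrq.S_2, cyc1.L, cox6b1.S, cox6b1.L, cox7c.S and ndufs7.S, and they overlap in cox17.L, sdhd.S and sdhd.L. In cox6b1.L the atrazine libraries are the higher ones.

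A second comparison set the L copy of each gene against the S copy, a measure the choice of members did not use. FPKM is per length, so the copies can be compared. Ratios and folds were taken on FPKM + 1, which understates them where a copy is low. Of the 7 member pairs with exactly 1 row of each copy, 1 was called, with at least a 2-fold ratio and a limma adjusted p under 0.05, against 32.9% of 630 pairs in the table. It was cox6a1, with 2.72-fold more mRNA from L than from S (log2 ratio 1.44 ± 0.08 SE, limma adjusted p = 1.02e-06). The L copy was higher in all 6 libraries, by 2.35-fold to 3.28-fold. In cox7a2, cyc1, sdhd and ndufa10 the log2 ratio of L to S was 0.72, -0.53, -0.29 and -0.18, under 2-fold though past the adjusted threshold. The fit took the difference between the groups out of the error. For sdhd the S copy was higher in 4 libraries and the L copy in 2, control replicates 2 and 3, so its mean ratio does not describe the controls. The limma adjusted p of ndufa10 was 0.0167, and it missed the threshold with atrazine replicate 1 left out (0.0590) or atrazine replicate 2 left out (0.0609). In cox17 and cox7c the copies did not differ beyond their spread, with log2 ratios of 0.04 ± 0.09 and -0.07 ± 0.07 (SE).

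Many members have a homeolog that the deposited table lists only under a LOC number. Pairs were therefore also formed with the symbols of assembly v10.1, an alternative chosen after the data had been seen. It gave 48 respiratory chain pairs, of which 18 (37.5%) were called, 12 with the L copy higher and 6 with the S copy higher, beside 32.7% of 5796 pairs in the table (20.3% L higher, 12.5% S higher). The share was thus near that of the table. The order of the copies was the same in all 6 libraries in 39 of the 48 pairs.

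Called pairs came from every group except complex II, numbering 9 of 21 in complex I, 1 of 4 in complex III, 2 of 7 in complex IV, 4 of 10 in complex V and 2 of 4 among the assembly factors. In complex I the L copy was higher in 7 of the 9 called pairs, led by ndufb4 (6.99-fold), ndufb7 (5.28-fold) and ndufa7 (4.45-fold), all accessory subunits. The largest L excess of all was 7.99-fold, in atp5mk, a small Fo subunit whose L row lies on an unplaced sequence. The largest S excess was that of uqcrb, at 31.9 ± 4.03 FPKM from L and 252 ± 24.9 FPKM from S (SD, n = 6), a 7.71-fold ratio of FPKM + 1. Among the pairs with more mRNA from S, the catalytic beta subunit atp5f1b followed with 3.16-fold, then the assembly factor sdhaf2 with 3.08-fold and the accessory subunit ndufb1 with 2.60-fold. The alpha subunit atp5f1a, in contrast, was almost even, at 224 ± 10.7 and 217 ± 10.6 FPKM from L and S (SD, n = 6).

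The ratios were also compared between the groups. No pair of the table was called for a difference between atrazine and control, by deposited symbols (0 of 630, 0%, with 44 or 6.98% at an unadjusted p under 0.05) or by assembly v10.1 symbols (0 of 5796, 0%, with 379 or 6.54%). Without control replicate 1, 1 pair by deposited symbols was called, and it was not a member. The members with an unadjusted p under 0.05 by deposited symbols were sdhd and cox17, 2 of 7 pairs. By assembly v10.1 symbols they were sdhd, cox17 and ndufs1, 3 of 48 pairs, a share near that of the table. Homeologs are similar in sequence, and the labels do not say how reads that match both copies were assigned.

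**Figure D5:**
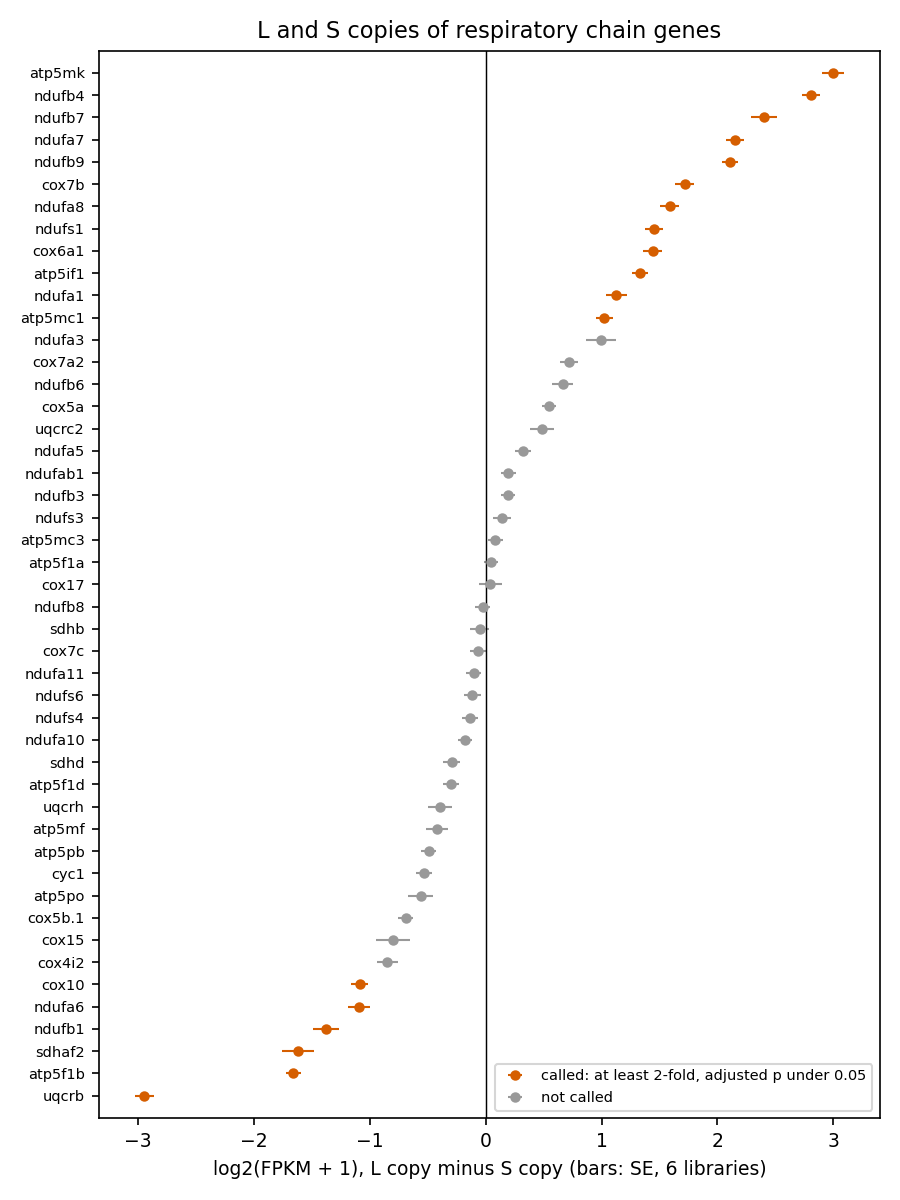
Log2 ratio of the L to the S copy for 47 of the 48 respiratory chain pairs formed with assembly v10.1 symbols, as the mean over 6 libraries with its SE. Orange points are the 18 called pairs and grey points the others. Points run from -2.95 for uqcrb to 3.00 for atp5mk, with 24 of the pairs drawn above 0.

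Circular RNAs, closed rings read through their back-splice junctions, gave another readout of the same genes. The table lists 68575 rings, and 90 of them came from 41 member genes. A ring was found for 38.5% of the 104 member symbols with a mean of at least 1 FPKM, against 65.6% of all 21208 such symbols. Their junction reads numbered 66, 76 and 25 in atrazine and 38, 87 and 66 in control libraries. Of the 90 rings 70 (77.8%) were seen in a single library, as were 78.0% of all rings, and none was seen in all 6.

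The ring with the most reads came from cox6b1.L, at 125900713 to 125904538 of chromosome 7L, with 7, 13 and 0 junction reads in atrazine and 4, 7 and 4 in control. By gene, ndufv1.L had the most ring reads, 46 in 10 rings, followed by cox6b1.L with 35 in 1 ring and ndufa9.L with 29 in 7 rings. Only 9 member rings had at least 2 reads in at least 3 libraries. None was called, nor was any of 6592 rings (0%), by edgeR's quasi-likelihood test with Benjamini-Hochberg adjustment, with 408 (6.19%) at an unadjusted p under 0.05. DESeq2 gave 0 called and 119. A ring of atp5a1 had 2, 2 and 4 reads in atrazine and 0, 0 and 0 in control (edgeR unadjusted p = 0.0273, adjusted p = 0.640). It met the read filter through its atrazine libraries alone, so this p cannot decide whether the ring differed. With no filter on low counts its edgeR unadjusted p was 0.0668.

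Genes around the chain were counted from fixed lists. None of their rows was called. Of 19 rows for electron carriers and coenzyme Q synthesis 11 were higher and 8 lower (median 0.029). Cytochrome c itself, cycs.S, stood at 53.3, 49.5 and 55.5 FPKM in atrazine and 52.3, 65.5 and 79.1 FPKM in control, with overlap. Of 20 tricarboxylic acid cycle rows 12 were higher and 8 lower (median 0.052), and malate dehydrogenase mdh2.S was the only one without overlap, at 113, 91.9 and 101 FPKM against 117, 132 and 118 FPKM.

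Of 12 rows for regulators of mitochondrial biogenesis 10 were higher and 2 lower (median 0.073). The mitochondrial transcription factor tfam.L had log2 difference 0.06, the coactivator ppargc1a.S 0.02 and the transcription factor nrf1.S 0.08, all with overlap. The subunits of the nuclear respiratory factor GABP pointed apart, with gabpa.L at 0.46 and gabpb1.S at -0.40. Of 17 rows for other assembly factors, atpaf2.S among them, 7 were higher and 10 lower (median -0.058). The complex III assembly factor uqcc1.S stood at 11.2, 10.9 and 11.4 FPKM in atrazine and 14.7, 16.2 and 14.9 FPKM in control, without overlap (log2 difference -0.42, limma unadjusted p = 0.00581, adjusted p = 0.693).

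The partner subunits encoded by the mitochondrial genome that could be tested did not separate the groups. Of the 13 protein genes, ND4L was at 0 FPKM in every library. ND4 reached 0.5 FPKM only in control replicate 3, at 14.7 FPKM, and was not tested. The 11 tested all overlapped between atrazine and control, 7 higher and 4 lower, and 0 were called. Over all rows tested only 11.3% were without overlap in either direction, so overlap in all of so few rows is little different from the table. Among them CYTB and ND5 were low. CYTB had means of 2.38 ± 0.688 and 1.37 ± 0.274 FPKM (SD, n = 3), with a log2 difference of 0.50 ± 0.19 (SE, limma unadjusted p = 0.0288, adjusted p = 0.693). The rows with the highest level were COX1, at 2560 ± 176 FPKM after atrazine and 2605 ± 116 FPKM without, COX2, at 1427 ± 55.8 and 1426 ± 124 FPKM, and ATP8, at 1516 ± 154 and 1391 ± 264 FPKM (SD, n = 3).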

How the data were processed

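Per the file headers, the authors deposited FPKM values and a count-like signal per mRNA row, and raw junction counts per circRNA. The submitters' processing notes name CASAVA 1.8, Bowtie2 and HISAT2. The sources used here do not give the quantifier, circRNA caller, read assignment between copies or genome build. The authors also deposited log2 normalized circRNA values, not used here. Nearly all signal values (99.86% to 99.88% per library) were whole multiples of 1 step, from which reads were estimated.

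Rows of 0.5 FPKM or more in 3 or more libraries were tested with limma 3.58.1 (lmFit, eBayes with trend; R 4.3.3) on log2(FPKM + 1), which understates differences of low rows. L to S ratios, of FPKM + 1, were tested with limma where a copy had a mean of at least 1 FPKM. circRNAs with at least 2 junction reads in at least 3 libraries were tested with edgeR 4.0.16 (TMM, quasi-likelihood), with DESeq2 1.42.0 as alternative. All tests are two-sided and adjusted over each table (Benjamini-Hochberg, threshold 0.05). Fits were tested on simulated data. Alternatives changed pseudocount, filter, scaling, trend, replicate block, libraries left out and member rule.

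Members and lists were chosen with earlier results of these data known. Named rows were, per complex, up to 2 higher and 2 lower rows without overlap with the smallest p, the 2 most abundant rows, core subunits, isoform families and uneven homeolog pairs; 1 gene of that rule is not reported here. Names came from the annotation of assembly v10.1, which gave 92 of the 112 members a symbol. Of 74 placed members with an L or S suffix, 11 lie on a chromosome of the other set. Coordinates follow the files, counted from 1.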

Additional observations from a re-analysis of the deposited data

How the results depend on the processing

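No member was called under any of the settings run. Leaving out 1 library gave 0 to 5 called mRNA rows (5 without control replicate 1, 1 without atrazine replicate 3), 4 to 26 members at an unadjusted p under 0.05 (3.67% to 23.9%, against 2.80% to 19.1% of all rows), 22 to 33 members without overlap lower (20.2% to 30.3%, against 7.14% to 15.8%) and 6 to 17 higher (5.50% to 15.6%, against 8.95% to 22.6%), and a member median of -0.081 to -0.035. By complex those medians ran from -0.098 to -0.049 (I), -0.15 to 0.077 (II), -0.13 to -0.018 (IV) and 0.040 to 0.27 (assembly). Median-of-ratios scaling gave a member median of -0.12, with 78 of 109 lower (71.6%, against 49.3% of all rows), and -0.095 in complex I. The median of all rows was then 0.0036. Without a trend 8 members (7.34%, against 5.99% of all rows) had an unadjusted p under 0.05. Members by assembly v10.1 symbols (161 tested) gave -0.093 (I), -0.097 (II) and -0.019 (V). Of these members 102 were lower, 22 (13.7%) were without overlap lower and 7 (4.35%) without overlap higher.

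The replicate numbers did not pair the samples, with correlations of same-numbered deviations of 0.025, -0.35 and -0.039. The replicate block left 8 members (7.34%, against 4.33% of all rows) at an unadjusted p under 0.05, gave 1 called circRNA and put the adjusted p of the ndufa10 ratio of L to S at 0.0522. Without a filter on low counts 3 circRNAs were called, and 0 to 2 with 1 library left out. Pairs by assembly v10.1 symbols gave 1898 called in the table and 18 among members, and leaving out 1 library gave 0 to 1 pair called for the group difference.

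Of 51 named rows 37 kept the sign of their log2 difference under all 11 settings of the fit. The other 14 changed sign with 1 library left out, most of them near 0. Their ranges were ndufs8.L (-0.035 to 0.024), sdhb.S (-0.17 to 0.25), uqcrb.S (-0.17 to 0.04), LOC108711316 (-0.15 to 0.018), cox6a1.L (-0.032 to 0.090), cox6b1.S_2 (-0.030 to 0.46). For the rest they were cox7a2l.L (-0.20 to 0.031), ndufa4.L (-1.99 to 0.016), ndufa4.L_3 (-1.04 to 0.70), LOC108701385 (-0.049 to 0.053), atp5a1.L (-0.079 to 0.020), atp5b.S (-0.092 to 0.070), atp5g3.L (-0.11 to 0.060) and cox17.L (-0.50 to 0.0015). Median-of-ratios scaling also turned ndufs8.L (-0.043), cox6a1.L (-0.033) and LOC108701385 (-0.035). The cause was not tested.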
